A study of Mus musculus with 8 samples.

Results

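The 10 genes described here are Atf4 and 9 genes that it is known to control when amino acids run short or proteins misfold: Ddit3, Ddit4, Trib3, Chac1, Asns, Sesn2, Psat1, Phgdh and Slc7a11. They were matched by symbol among 52338 gene rows with values, and all 10 were found. The study sequenced RNA of mouse embryonic stem cells, pluripotent cells of the early embryo, and concerned linc1393, a long intergenic non-coding RNA. The 8 libraries fell into 4 groups of 2: cells treated with sh-linc1393 (sh), cells treated with sd-linc1393 (sd), cells treated with dd-linc1393 (dd), and untreated wild-type cells (control). The labels give no strain, cell line, time of treatment or meaning for sd and dd, and do not say whether replicates came from separate cultures. The p-values therefore reflect the spread among these libraries alone, and that spread may be technical. The controls received no reagent, so giving a reagent and acting on linc1393 cannot be told apart, and the level of linc1393 itself was not analysed here.

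Atf4 is a transcription factor of the integrated stress response. When a kinase such as Eif2ak4, which senses uncharged tRNA, phosphorylates the translation initiation factor eIF2alpha, most protein synthesis slows while translation of the Atf4 messenger increases, so much of its control lies beyond RNA level. Its targets make or import amino acids, charge tRNA, dampen growth signalling or, when stress persists, favour cell death.

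Some of these genes carry in their promoter the composite element bound by Atf4 together with a C/EBP factor. The letters TGATGNAA, or TTNCATCA on the other strand, were searched in the 250 bases before each transcription start (RefSeq, GRCm38.p6). All 10 genes matched, with 11 windows, and 3 genes held the letters, against 3.45% of 32851 mouse windows. The stricter form TGATGCAA (TTGCATCA on the other strand), which is contained in the first, occurred in Chac1 and Slc7a11 and in 0.791% of windows. A match describes letters only, and no match says only that these letters are not in the window. The windows with a match are printed because they show how far the spacing of the element from the start differs between genes of the same pathway. They run 5′ to 3′ on the strand of the gene, with the match in capitals: chr2:119350992-119351241 on the plus strand for Chac1, chr3:50443614-50443863 on the minus strand for Slc7a11, and chr6:7693210-7693459 on the minus strand for Asns.
Chac1: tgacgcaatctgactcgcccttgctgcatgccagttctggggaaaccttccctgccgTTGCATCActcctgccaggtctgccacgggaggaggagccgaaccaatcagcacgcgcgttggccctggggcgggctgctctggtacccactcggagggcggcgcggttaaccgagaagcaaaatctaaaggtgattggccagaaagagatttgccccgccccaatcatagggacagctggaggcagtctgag
Slc7a11: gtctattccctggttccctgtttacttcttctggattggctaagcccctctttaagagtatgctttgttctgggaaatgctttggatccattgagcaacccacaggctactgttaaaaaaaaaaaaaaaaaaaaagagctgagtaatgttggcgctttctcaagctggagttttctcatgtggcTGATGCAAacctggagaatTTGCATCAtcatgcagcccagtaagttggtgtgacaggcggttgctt
Asns: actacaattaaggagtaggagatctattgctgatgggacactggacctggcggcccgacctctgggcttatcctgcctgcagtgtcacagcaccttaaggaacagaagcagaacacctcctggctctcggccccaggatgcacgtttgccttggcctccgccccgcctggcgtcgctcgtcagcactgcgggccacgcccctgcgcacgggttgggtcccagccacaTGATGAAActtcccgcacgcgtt
The match lay 193 to 186 bases before the start in Chac1 and 23 to 16 bases before it in Asns. Slc7a11 held 2 matches on opposite strands, at 66 to 59 and at 47 to 40 bases before the start.

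Levels are FPKM, fragments per kilobase of transcript scaled to a library total, as deposited. The library totals implied by the FPKM scale were 13738591 and 13972321 reads in sh, and 20346942 and 15365413 in sd. In dd they were 19161798 and 20387063, and in control 6415130 and 3658368. Reads recovered for genes matched to the annotation summed to less, with 3407463 in control replicate 2. All 10 embryonic stem cell markers were above 0 in every library, with a summed level of 6974 to 10060 FPKM for replicate 2 and 1369 to 1807 FPKM for replicate 1. Most of the replicate 2 sum was Dppa5a, at 5866 to 8584 FPKM in replicate 2 and 292 to 557 FPKM in replicate 1. The pluripotency factor Pou5f1 was below its own control in every treated library, at 24.2 and 14.7 FPKM in sh, 17.8 and 129.8 in sd, 21 and 53.1 in dd, and 83.1 and 251 in control. Sox2 was at 19.7 FPKM in sh replicate 2 and 291 in control replicate 2, but at 235 and 371 in dd against 200 and 291 in control. Of the 10 markers, 8 in sh, 8 in sd and 7 in dd had a positive log2 difference from control. Among all genes tested, 65.5%, 62.9% and 53.6% did. The libraries stood apart by replicate number. Genes above 0 numbered 32639 to 46560 in replicate 2 and 16152 to 19745 in replicate 1, and the first principal component, with 78.4% of the variance, separated the numbers. Each treated library is therefore also set against the control library of its own number. The summed level of 10 fibroblast feeder markers was 2.50 to 9.71 FPKM for replicate 2, where none was at 0, and 0.744 to 1.41 FPKM for replicate 1, where 4 to 8 were at 0. That of 10 primitive endoderm markers, none at 0 in any library, was 102 to 118 FPKM for replicate 2 and 128 to 197 FPKM for replicate 1, and 7 of the 10 were called lower in replicate 2 (limma, median log2 difference -1.35). The part of these markers in the results was not tested.

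Atf4 (ENSMUSG00000042406, chromosome 15, 80255184 to 80257541, plus strand, GRCm38) was present at 34.1 and 73.9 FPKM in the sh libraries (replicates 1 and 2), 34.8 and 96.4 FPKM in sd, 42.5 and 81.3 FPKM in dd, and 23.9 and 65.5 FPKM in control. Every treated library lay above the control library of its own number, and in every group the replicate 1 library lay below the control replicate 2 library, so the groups overlapped. The means were 54.0 ± 28.1 FPKM in sh, 65.6 ± 43.6 in sd, 61.9 ± 27.4 in dd and 44.7 ± 29.4 in control (SD, n = 2 each). Against the control of the same number, the FPKM ratio was 1.43 and 1.13 in sh, 1.45 and 1.47 in sd, and 1.77 and 1.24 in dd (replicates 1 and 2). The exact 95% intervals of these ratios, which cover counting error only, ran from 1.03 at the lowest to 1.99 at the highest. On the log2(FPKM + 1) scale the group differences from control were 0.33 in sh, 0.54 in sd and 0.55 in dd, each with a standard error of 0.88, and did not pass limma's test (adjusted p = 1 in each). A block for replicate number gave a standard error of 0.32. With it, limma's adjusted p was 0.999 in sh, 0.733 in sd and 0.567 in dd. Without the block, the difference was -0.37 in sh and -0.15 in dd without control replicate 1, and -0.19 in sd without sd replicate 2, fits that set unequal replicate numbers against each other. The order within replicate 1 was dd, sd, sh and control from high to low, and within replicate 2 it was sd, dd, sh and control. In bulk RNA, fewer cells expressing a gene and less RNA per cell cannot be told apart.

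**Figure D1:**
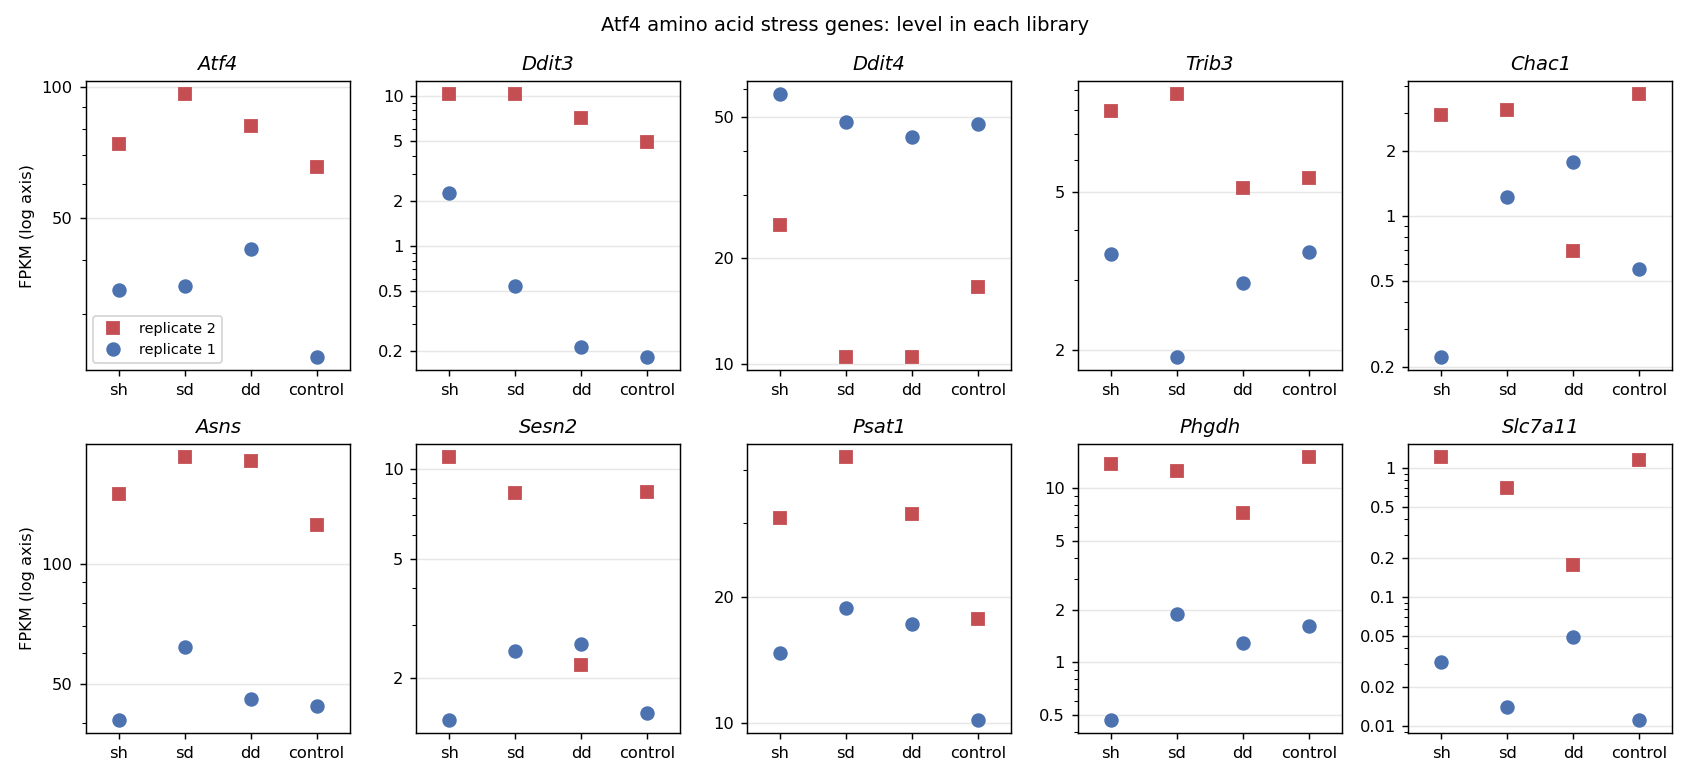
Level of each gene in each library, as FPKM on a log axis with its own range for each gene, for sh, sd, dd and control. Red squares are replicate 2 and blue circles are replicate 1: for Atf4 and Psat1 both treated symbols lie above the control symbol of the same colour in every group, and for Ddit4 replicate 2 lies below replicate 1 in all 4 groups.

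The stress effectors came next. Ddit3 (chromosome 10, 127290774 to 127296288, plus strand), which encodes Chop, a factor linked to cell death under lasting stress, had 2.25 and 10.2 FPKM in sh, 0.545 and 10.3 FPKM in sd, 0.213 and 7.07 FPKM in dd, and 0.182 and 4.95 FPKM in control. Every treated library was above its own control, and replicate number set the level more than treatment did. The ratio to control was 12.4 (3.26 to 105) in sh replicate 1 and 2.07 (1.42 to 3.11) in sh replicate 2, the first resting on 53 reads against 2. In sd it was 3.0 (0.723 to 26.5) and 2.07 (1.43 to 3.11), and in dd 1.17 (0.223 to 11.6) and 1.43 (0.982 to 2.15). Only the sh libraries and sd replicate 2 thus differed from control beyond counting error. The group difference was 1.19 ± 1.43 in sh, 0.65 ± 1.43 in sd and 0.24 ± 1.43 in dd (log2 ± SE), with a limma adjusted p of 1 in each. With the replicate block the standard error was 0.41. The limma p in sh was then 0.0179 unadjusted and 0.999 adjusted. Ddit3 overlaps Mars, a tRNA synthetase gene on the other strand, and no source used here states that counting used strand. Reads from the shared stretch therefore cannot be told apart. A second row named Ddit3 (127290829 to 127293753) overlaps the first on the same strand and was at 0 in all 8 libraries. The row with the higher mean was used. How counting treated reads shared by these rows is not given, so the level of Ddit3 is uncertain there. Mars had 2.19 and 23.2 FPKM in sh, 1.94 and 23.3 in sd, 1.75 and 14.5 in dd, and 0.501 and 14.4 in control.

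Trib3 (chromosome 2, 152337422 to 152344032, minus strand), a pseudokinase induced by Atf4 and Ddit3 that dampens Atf4 activity, had 3.49 and 7.98 FPKM in sh, 1.92 and 8.79 FPKM in sd, 2.95 and 5.10 FPKM in dd, and 3.52 and 5.40 FPKM in control. The sd libraries went opposite ways, with a ratio of 0.545 (0.378 to 0.795) in replicate 1 and 1.63 (1.17 to 2.31) in replicate 2. The dd libraries were within counting error of control in both numbers. Ddit4 (chromosome 10, 59949669 to 59951834, minus strand), an inhibitor of the mTORC1 growth kinase, had 57.9 and 24.8 FPKM in sh, 48.4 and 10.5 FPKM in sd, 43.8 and 10.5 FPKM in dd, and 47.6 and 16.5 FPKM in control. In sh both libraries were above their controls, with ratios of 1.22 and 1.5, whereas in replicate 2 the ratio was 0.636 in sd and 0.637 in dd. Sesn2 (chromosome 4, 132492032 to 132510501, minus strand), a leucine sensor that also restrains mTORC1, had 1.45 and 11 FPKM in sh, 2.46 and 8.33 FPKM in sd, 2.60 and 2.20 FPKM in dd, and 1.53 and 8.42 FPKM in control. The dd libraries were above control in replicate 1, with a ratio of 1.70 (1.17 to 2.54), and below it in replicate 2, with a ratio of 0.262 (0.203 to 0.338). None of these 3 genes passed limma's test in any group (adjusted p = 1), and their group differences lay between -0.52 and 0.42 on the log2 scale with standard errors of 0.75 to 1.09. With the replicate block the standard errors were 0.36 to 0.56, and none of the 3 genes passed.

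Chac1 and Slc7a11 act on glutathione, the main cellular antioxidant, from opposite sides. Chac1 (chromosome 2, 119351229 to 119354381, plus strand), which breaks glutathione down, had 0.222 and 2.93 FPKM in sh, 1.23 and 3.10 FPKM in sd, 1.79 and 0.689 FPKM in dd, and 0.571 and 3.67 FPKM in control. In dd it was 3.12-fold (1.35 to 8.88) the control in replicate 1 and 0.188-fold (0.10 to 0.353) the control in replicate 2. Slc7a11 (chromosome 3, 49892526 to 50443614, minus strand), which imports cystine for glutathione synthesis, had 0.0314 and 1.21 FPKM in sh, 0.0141 and 0.701 FPKM in sd, 0.0487 and 0.176 FPKM in dd, and 0.0112 and 1.14 FPKM in control. Its replicate 1 values rest on 6 reads in sh, 4 in sd, 13 in dd and 1 in control. In replicate 2 its ratio to control was 1.07 (0.796 to 1.45) in sh, 0.616 (0.452 to 0.849) in sd and 0.155 (0.104 to 0.230) in dd. Slc7a11 did not reach the mean of 1 FPKM needed to enter the test, and Chac1 did not pass it (limma adjusted p = 1 in each group). With the replicate block, limma's adjusted p for Chac1 was 0.999 in sh, 0.961 in sd and 0.855 in dd. In dd Chac1 and Slc7a11 thus lay above control in replicate 1 and below it in replicate 2. However, the replicate 1 ratio of Slc7a11, 4.35 (0.654 to 185), is within counting error.

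Asns and the serine enzymes make amino acids. Asns (chromosome 6, 7675169 to 7693254, minus strand), which makes asparagine, had the highest mean of the 10 genes in each group in FPKM, a scale per length. It had 40.8 and 149.7 FPKM in sh, 62.0 and 185 FPKM in sd, 45.9 and 181 FPKM in dd, and 44.1 and 125 FPKM in control. Both sd libraries were above their controls, with ratios of 1.41 (1.30 to 1.52) and 1.48 (1.398 to 1.58). In dd only replicate 2 was beyond counting error, at 1.45 (1.37 to 1.54) against 1.04 (0.961 to 1.13) in replicate 1, and in sh the ratios were 0.926 and 1.20. The means were 95.2 ± 77.0 FPKM in sh, 124 ± 87.2 in sd, 114 ± 95.6 in dd and 84.5 ± 57.2 in control (SD, n = 2 each).

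Psat1 (chromosome 19, 15904678 to 15947337, minus strand), the aminotransferase of serine synthesis, stood further from control in sd, relative to its error, than the other 8 genes did in sd. It had 14.7 and 30.8 FPKM in sh, 18.8 and 43.0 FPKM in sd, 17.2 and 31.4 FPKM in dd, and 10.2 and 17.7 FPKM in control. Both sd libraries were above both control libraries, which held for no other gene of the 9 tested in any of the 3 comparisons. Among all genes tested, 8.4% in sh, 11.1% in sd and 11.2% in dd had both libraries above both controls. For 0 of the 9 genes were both treated libraries below both controls, against 2.13%, 2.69% and 4.72% of all genes. The ratio to the control of the same number was 1.44 (1.26 to 1.65) and 1.74 (1.54 to 1.99) in sh, 1.85 (1.62 to 2.10) and 2.43 (2.15 to 2.76) in sd, and 1.69 (1.48 to 1.93) and 1.77 (1.57 to 2.02) in dd. Within each replicate number the order from high to low was sd, dd, sh and control. The group differences were 0.63 in sh, 1.03 in sd and 0.75 in dd on the log2 scale, each with a standard error of 0.74, or 0.33 with the replicate block. They did not pass limma's test, with an adjusted p of 1 in each group and of 0.999, 0.723 and 0.553 in sh, sd and dd with the block.

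Phgdh (chromosome 3, 98313170 to 98339990, minus strand), the dehydrogenase that opens the same serine pathway, did not follow Psat1. It had 0.468 and 13.8 FPKM in sh, 1.90 and 12.5 FPKM in sd, 1.30 and 7.18 FPKM in dd, and 1.63 and 15.2 FPKM in control. Its ratio to control was 0.287 (0.144 to 0.556) in sh replicate 1 and 0.473 (0.388 to 0.580) in dd replicate 2, and the intervals of the other 4 included 1. Of its 31-base words, 55.9% also occur in other genes, chiefly Gm7901, Gm9347 and Gm8341, so its level is uncertain where reads could be split among copies. Psph, the phosphatase that ends the pathway, had 5.20 and 12 FPKM in sh, 9.88 and 16.8 FPKM in sd, 11.5 and 16.4 FPKM in dd, and 3.89 and 11.1 FPKM in control. Like Psat1, it was above its own control in every treated library. It did not pass the test (limma adjusted p = 1 in sd and in dd, or 0.723 and 0.553 with the replicate block). Psph was named because its unadjusted p was among the smallest of its list in sd and dd, a choice that favours such separation.

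In limma's test at an adjusted p under 0.05, 0 of the 9 genes were called in sh, sd or dd against control, where 0% of all 14561 genes tested were called. Unadjusted, 32 genes in sh, 50 in sd and 83 in dd had a p under 0.05, none of them among the 9. With the replicate number as a block 0 genes were called, with 480, 945 and 1310 at an unadjusted p under 0.05, and voom on recovered reads called 0 with that block too. Across the 3 comparisons and the 3 between treatments, 0 of the 54 tests on these genes had an unadjusted p under 0.05 without the block and 4 had with it, among them Ddit3 in sh and Psat1 in sd and dd. The smallest adjusted p with the block was 0.553. An adjusted p that misses the threshold here does not show that levels did not differ, since without the block the spread between the replicate numbers enters the error.

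Some genes lay on the same side of control in both replicate numbers. In sh, Atf4, Ddit3, Ddit4 and Psat1 were higher in both numbers, 4 of the 9 (44.4%) against 35.2% of all genes. In sd and in dd, Atf4, Ddit3, Asns and Psat1 were higher in both numbers, 4 of 9 each, against 37.5% and 31% of all genes. Lower in both numbers were Chac1 and Phgdh in sh, none in sd, and Ddit4, Trib3 and Phgdh in dd, against 10.6%, 12.7% and 15.1% of all genes. The shares for the higher direction are near the background, and the 3 comparisons share the same control libraries. Atf4 and Psat1 kept their direction in every same-number difference under quantile and median ratio scaling, with Atf4 as low as 0.025 in sh replicate 2. Ddit3 in sh kept its direction too. In dd replicate 1, Ddit3 turned to -0.36 under quantile and -0.035 under median ratio scaling, and Asns to -0.19 and -0.34. In sd replicate 1, Ddit3 turned to -0.062 under quantile and Asns to -0.014 under median ratio scaling. Among the lower genes, Trib3 in dd replicate 2 turned to 0.18 under quantile and 0.19 under median ratio scaling. Ddit4 and Phgdh in sd became lower in both numbers under both scalings, with Ddit4 in replicate 1 at -0.27 and -0.48 and Phgdh in replicate 1 at -0.22 and -0.20. Sesn2 in sd became higher in both numbers under both, at 0.0055 and 0.065 in replicate 2.

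**Figure D2:**
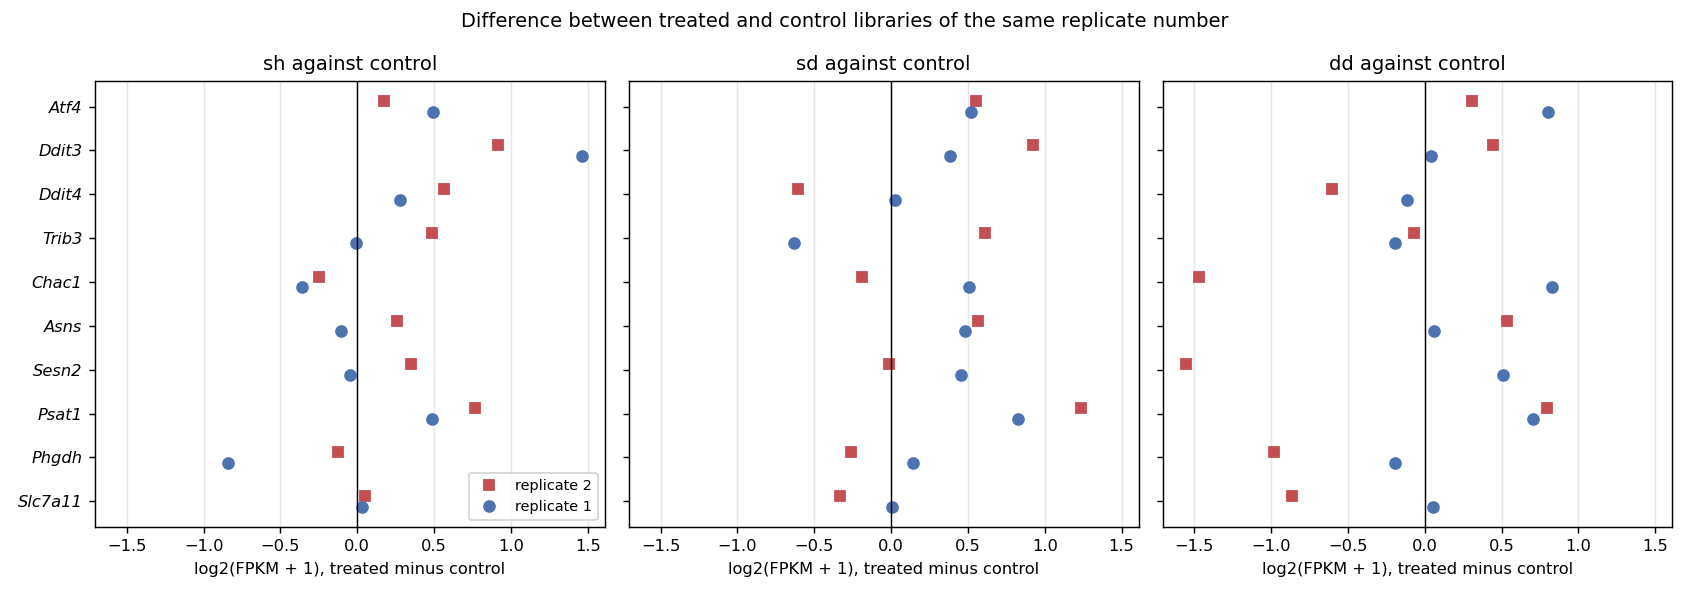
Difference in log2(FPKM + 1) between each treated library and the control library of the same replicate number, one panel each for sh, sd and dd against control, with red squares for replicate 2 and blue circles for replicate 1. Psat1 and Atf4 lie right of 0 in all 3 panels in both numbers, while in dd replicate 2 Chac1 and Sesn2 lie at -1.47 and -1.56.

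Library dd replicate 2 split the genes. Against control replicate 2, Atf4, Asns, Psat1 and Ddit3 had ratios of 1.24, 1.45, 1.77 and 1.43, whereas Chac1, Sesn2, Phgdh and Slc7a11 had ratios of 0.188, 0.262, 0.473 and 0.155. Ddit4 had a ratio of 0.637 and Trib3 one of 0.944. Slc7a5, the leucine transporter, had 2.54 FPKM in dd replicate 2 and 13 in control replicate 2. Atf5, a related transcription factor, had 1.03 and 5.35 FPKM. Other genes of both their lists were higher in dd replicate 2 than in control replicate 2. The median log2 difference between these libraries was 0.085 for the amino acid transporters and -0.39 for the Atf4 partners and related factors. For all genes tested it was -0.13. In dd replicate 1 the ratios of Chac1, Sesn2 and Slc7a11 were 3.12, 1.70 and 4.35, the last with an interval of 0.654 to 185. This library also had fewer genes above 0 than the other replicate 2 libraries, 32639 against 40970 to 46560, and a position of 65.6 on the first principal component against 102.6 to 120.9. The part of these differences in the result was not tested.

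The rest of the pathway was described from 6 lists holding 59 genes, and 0 genes of these lists were called in any comparison with control, with or without the block. The cytosolic aminoacyl-tRNA synthetases, which charge tRNA with amino acids, were positive in 13 of 13 genes in sh, 12 of 13 in sd and 11 of 13 in dd, against 65.5%, 62.9% and 53.6% of all genes tested. Their median difference was 0.49 in sh, 0.51 in sd and 0.25 in dd, against 0.15, 0.17 and 0.058 for all genes. The all-gene median was 0.038, 0.039 and 0.053 after quantile scaling and 0.029, 0.031 and 0.045 after median ratio scaling, where the synthetases had 0.40, 0.31 and 0.15 and then 0.32, 0.30 and 0.23. They were higher in both replicate numbers in 8, 12 and 4 of the 13 genes. The isoleucine enzyme Iars had 37.6 and 27.6 FPKM in sh, 39.4 and 24.9 in sd, 36.9 and 36.7 in dd, and 26.8 and 17.6 in control. The alanine enzyme Aars had 7.12 and 18.1 FPKM in sh, 7.06 and 14.6 in sd, 7.01 and 10.2 in dd, and 4.40 and 10.2 in control. For Iars every treated library was above its own control. Iars was named because its unadjusted p was among the smallest of its list in sd and dd, a choice that favours such separation.

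The serine, glycine and one-carbon enzymes were positive in 11, 12 and 10 of 12 tested genes in sh, sd and dd, with medians of 0.23, 0.29 and 0.27. All genes tested had 65.5%, 62.9% and 53.6% positive and medians of 0.15, 0.17 and 0.058. The positive genes numbered 7, 10 and 8 after quantile and 7, 12 and 10 after median ratio scaling. In sh the median was then 0.029 and 0.095, against 0.038 and 0.029 for all genes. Shmt1, which transfers a carbon unit from serine to folate, had 14.8 and 17.8 FPKM in sh, 22.8 and 23.1 in sd, 17.4 and 18.7 in dd, and 13.6 and 15.5 in control, above its own control in every treated library. Mthfd2, a mitochondrial folate enzyme, had 8.35 and 27.4 FPKM in sh, 10.05 and 28.6 in sd, 8.28 and 26.7 in dd, and 9.70 and 13.2 in control, so it was higher in replicate 2 of each treatment and mixed in replicate 1. The amino acid transporters had 7, 7 and 6 of 9 positive, with medians of 0.12, 0.28 and 0.067, the first turning to -0.040 under median ratio scaling. Slc36a1, a lysosomal amino acid exporter, was below its own control in every treated library, at 0.608 and 2.25 FPKM in sh, 1.46 and 1.70 in sd, 1.51 and 1.66 in dd, and 3.85 and 2.62 in control. Slc1a4, a neutral amino acid transporter, was above its own control in every treated library. It had 4.12 and 6.76 FPKM in sh, 3.94 and 6.07 in sd, 0.997 and 5.16 in dd, and 0.516 and 5.08 in control. Shmt1, Slc36a1 and Slc1a4 were named because their unadjusted p was among the smallest of their list, a choice that favours such separation. The share of all genes on the same side of control in every treated library was not computed.

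Upstream of Atf4, the eIF2alpha kinases and phosphatase subunits with their regulators had 5, 5 and 6 of 9 genes positive in sh, sd and dd, with medians of 0.15, 0.22 and 0.21. The median in sd turned to -0.0029 under median ratio scaling. Eif2ak3, the kinase that answers misfolded protein in the endoplasmic reticulum, had 2.65 and 3.47 FPKM in sh, 4.34 and 3.43 in sd, 3.52 and 3.85 in dd, and 2.35 and 2.22 in control, and every treated library was above both controls. Eif2s1, which encodes eIF2alpha itself, had 40.7 and 38.2 FPKM in sh, 48.9 and 43.7 in sd, 57.9 and 51.2 in dd, and 36.5 and 30.3 in control, again with every treated library above both controls. Neither passed limma's test (adjusted p = 1), with or without the replicate block. In dd the log2 difference of Eif2s1 was 0.70, with a standard error of 0.56, or 0.31 with the block. With the block, limma's adjusted p in dd was 0.553 for Eif2s1 and 0.637 for Eif2ak3. Both were named because their unadjusted p was among the smallest of their list, a choice that favours such separation. Among all genes tested, 8.4% in sh, 11.1% in sd and 11.2% in dd had both libraries above both controls. These shares are for each treatment alone. The share of genes with every treated library above both controls was not computed. The Atf4 partners and related factors had 3, 3 and 2 of 6 positive, with medians of -0.0056, -0.022 and -0.026, the last turning to 0.026 under quantile scaling.

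The remaining stress targets had 2, 5 and 2 of 5 tested genes positive, with medians of -0.16, 0.16 and -0.26. Ero1l, an oxidase of protein folding, had 8.15 and 14.5 FPKM in sh, 8.03 and 9.94 in sd, 13.3 and 11.8 in dd, and 5.99 and 6.98 in control, above both controls in every treated library. Ero1l was named by the same rule as Eif2ak3 and Eif2s1. The shares of all genes given there are for each treatment alone, and the joint share was not computed. For comparison, 14 endoplasmic reticulum chaperones, which belong to another arm of the response, had 12, 9 and 8 positive genes and medians of 0.36, 0.29 and 0.24. Medians of lists and the all-gene medians come from the same fit, and nothing particular to a list is read from them.

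**Figure D3:**
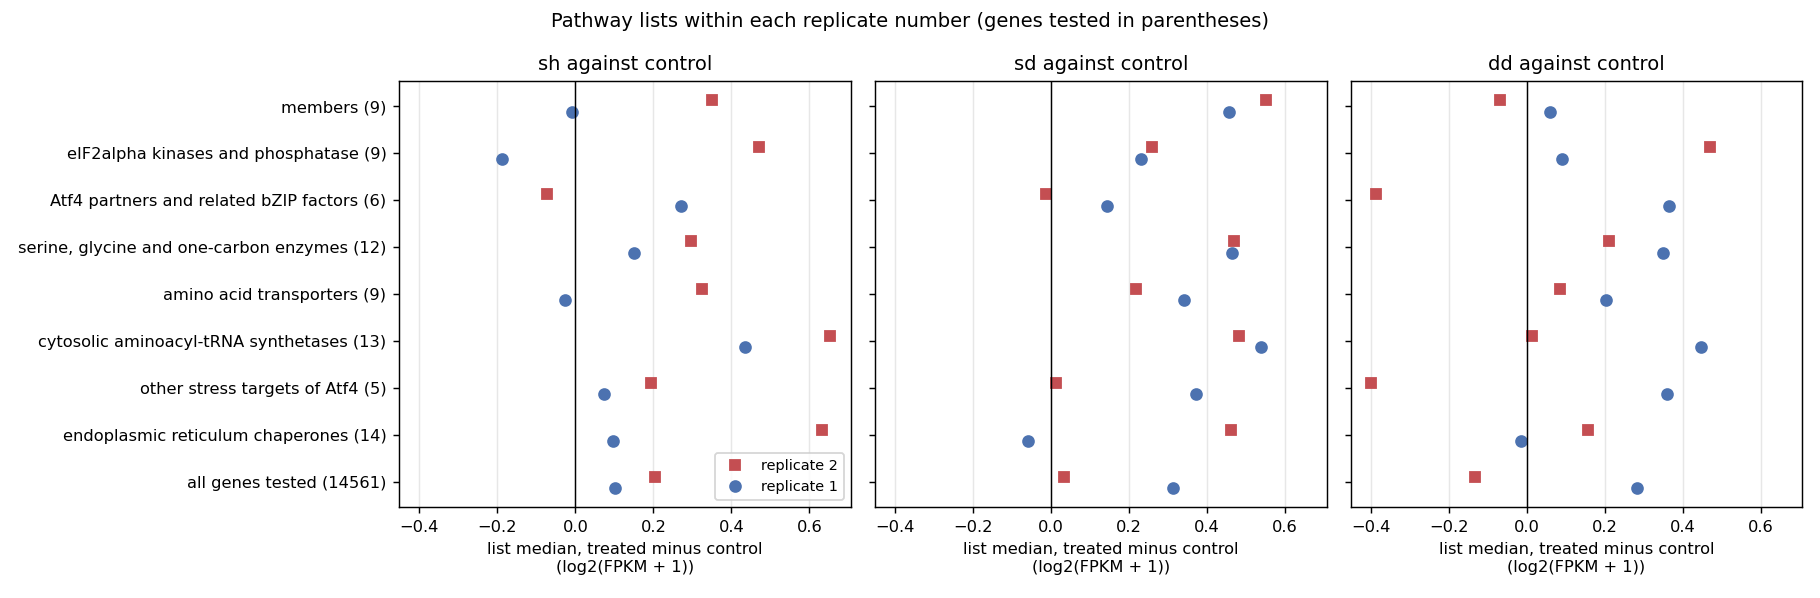
Median difference of each list in log2(FPKM + 1), treated minus the control library of the same replicate number, for sh, sd and dd against control, with the number of genes tested in parentheses and all 14561 genes in the bottom row. Red squares are replicate 2 and blue circles are replicate 1: the tRNA synthetases lie at 0.65 and 0.43 in sh and at 0.48 and 0.54 in sd, but at 0.013 and 0.45 in dd.

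More of these genes were called between the replicate numbers, a split by label and not a condition of the study. That comparison sets 4 libraries against 4. The main comparisons with control set 2 against 2 and leave the replicate difference in the error, so they are not tested alike. Replicate 2 against replicate 1, with group as a covariate, was called for 8 of the 9 genes, where 61.3% of all genes were called. Ddit3 and Phgdh differed most, by 2.43 ± 0.29 (limma adjusted p = 1.34e-04) and 2.50 ± 0.31 (limma adjusted p = 1.48e-04) on the log2 scale. Asns differed by 1.71 ± 0.22, Sesn2 by 1.36 ± 0.40, Atf4 by 1.22 ± 0.23, Trib3 by 0.97 ± 0.29 and Psat1 by 0.94 ± 0.23, with limma adjusted p-values between 1.75e-04 and 0.0174. These 7 were higher in replicate 2, as were 46.6% of all genes. Ddit4 was lower in replicate 2, by -1.68 ± 0.25 (limma adjusted p = 5.1e-04), as were 14.6% of all genes, and Chac1 was not called (0.85 ± 0.43, limma adjusted p = 0.112).

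In FPKM, Atf4 was at 65.5 to 96.4 in replicate 2 and 23.9 to 42.5 in replicate 1, and Asns at 125 to 185 and 40.8 to 62.0. Ddit4 was at 10.5 to 24.8 in replicate 2 and 43.8 to 57.9 in replicate 1. The ranges of these 3 genes did not overlap between the numbers, nor did those of Ddit3, Trib3, Phgdh and Slc7a11. Those of Chac1, Sesn2 and Psat1 did, with Psat1 at 17.7 to 43.0 and 10.2 to 18.8. The share of all genes without overlap was not computed, so nothing particular to these genes is read from this. The median of all genes differed by 0.73 between the numbers as deposited, by 0.025 after quantile scaling and by 0.24 after median ratio scaling. Under either scaling 4 of the 9 were called, Ddit3, Asns and Phgdh higher and Ddit4 lower, a share of the genes below that of all genes called, 57.4% after quantile and 59.1% after median ratio scaling. The share of all calls that were higher in replicate 2 was 76.1% as deposited, 48% after quantile scaling and 57.9% after median ratio scaling.

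**Figure D4:**
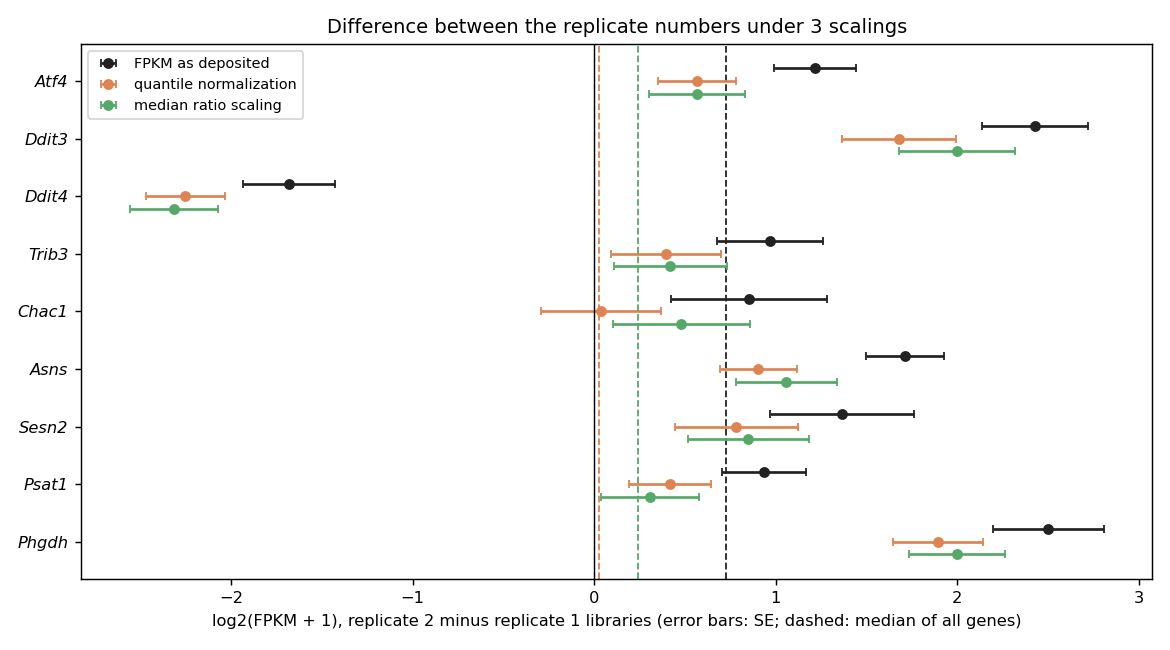
Difference in log2(FPKM + 1), replicate 2 minus replicate 1 libraries, for the 9 genes tested, as deposited (black), after quantile normalization (orange) and after median ratio scaling (green), with bars for the standard error and dashed lines at the median of all genes. Ddit4 lies left of 0 under each scaling and the other 8 genes lie right of it, with Chac1 after quantile normalization within its bar of 0.

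To see which genes shared the pattern of Atf4 once the replicate numbers were set aside, the mean of each number was subtracted and 4942 protein-coding genes with a mean of at least 5 FPKM were ranked by Pearson correlation with Atf4 over the 8 libraries. The 5 highest were Lrrc42 (r = 0.956), Denr (0.940), Med19 (0.940), Gtf2f2 (0.939) and Cdk1 (0.937). Among the genes described here, Psat1 had an r of 0.854 with Atf4, Asns 0.484, Ddit3 0.314, Chac1 0.192, Sesn2 0.087, Trib3 0.043, Phgdh -0.27 and Ddit4 -0.40. Chac1 and Sesn2 had an r of 0.897 with each other, and Phgdh had an r of 0.826 with Chac1 and 0.769 with Sesn2. In dd replicate 2 the ratios of Chac1, Sesn2 and Phgdh to control were 0.188, 0.262 and 0.473. The part of that library in these correlations was not tested. These are descriptions over 8 libraries that share depth and control values.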

How the data were processed

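Standard Illumina libraries were made from total RNA of lysed mouse embryonic stem cells, per the labels' protocols. The authors deposited FPKM per gene and library. CASAVA 1.4, HISAT2 and mm10 are named in the submitters' processing notes. For the counting program, annotation, FPKM formula and any use of strand, the entry is the same: not given in the sources used here. Of 58420 rows, 6082 had no value. Of the 52338 with values, 52081 matched GENCODE M21 (GRCm38) by Ensembl identifier and 257 did not.

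The deposited FPKM times union exon length gave whole reads, within 0.02, in 98.3% to 98.9% of each library's values below 100 reads. These reads gave depths of 3658368 to 20387063 reads per library, the exact 95% intervals and the voom alternative. They cover counting error only, because PCR copies cannot be told from separate molecules here.

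Libraries were grouped by the labels. Testing used limma 3.58.1 (R 4.3.3) with log2(FPKM + 1) values of 14561 genes with a mean of at least 1 FPKM, all 4 groups in 1 fit with 4 residual degrees of freedom, two-sided, with Benjamini-Hochberg adjustment over all genes at 0.05. This scale understates the change of low genes. Alternatives were pseudocounts of 0.1 and 0.5, no filter, a stricter filter at 5 FPKM, scaling by quantiles or median ratio, only the groups compared, voom, the replicate number as a block, and leaving out each library. The code was tested on simulated data for sh against control. There the fit without the replicate block recovered no planted change, and the block missed many of the smaller ones. Libraries with the same number deviated together from their group means, with correlations of 0.750 to 0.893 across genes for the 6 pairs of groups, so the numbers were taken to pair the samples. Only the fits with the replicate block use that pairing. The main comparisons of groups leave it out, so their standard errors hold the difference between the numbers. Beyond the 10 genes, the text names up to 2 genes per pathway list and comparison with the smallest unadjusted p, and the 5 genes most like Atf4. Psph and Slc7a5 fall under that rule, and Mars was named for its overlap with Ddit3. Dppa5a, Pou5f1 and Sox2 fall outside it and were picked from the stem cell markers. The genes and lists were chosen with earlier results of these data known. Promoter windows are from RefSeq.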

Additional observations from a re-analysis of the deposited data

How the results depend on the processing

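No comparison with control called a gene under pseudocount, filter, scaling, subset, voom or replicate block (paired) alternatives (0 genes each). With 2 libraries a group and large differences between replicate numbers, that says nothing about stability. Leaving out 1 library gave 0 to 102 calls in sh, 0 to 149 in sd and 0 to 167 in dd against control, and 0 to 11 in dd against sh. The highest counts were 102, 149 and 167 with the replicate block and without control replicate 1, and 11 with the block and without dd replicate 1. The cause was not tested. Between the replicate numbers, 5368 genes were called under the stricter filter at 5 FPKM, where fewer genes are tested, among them 5 of these genes, all that pass that filter. With quantile or median ratio scaling 4 of these genes were called, among 8358 and 8611 genes in all, and without 1 library 5 to 9, among 6992 to 8789, the 5 without sd replicate 1. Psat1 was positive in every alternative, with ranges over left-out libraries of 0.12 to 1.14 in sh, 0.45 to 1.61 in sd and 0.33 to 1.16 in dd, as was Ddit3 in sh (0.024 to 2.35). Differences near 0 turned sign: Asns in sh to -0.090 (median ratio) and -0.0083 (voom), Sesn2 in sh to -0.025 and Chac1 in sd to -0.023 (quantile), and Phgdh in sd to 0.19 (voom). Leaving out 1 library changed the sign of log2 differences without the block, where unequal replicate numbers are set against each other, and also with it for Trib3, Chac1, Sesn2 and Phgdh in 2 or 3 comparisons and Asns in sh. Over left-out libraries, with and without the block, they ran in sh over Atf4 -0.37 to 1.04, Ddit4 -0.32 to 1.16, Trib3 -0.26 to 0.74, Chac1 -1.15 to 0.54, Asns -0.85 to 1.0003, Sesn2 -0.996 to 1.30, Phgdh -2.15 to 1.19. In sd they ran over Atf4 -0.19 to 1.26, Ddit3 -0.78 to 2.09, Ddit4 -1.34 to 0.76, Trib3 -0.88 to 0.86, Chac1 -0.63 to 0.94, Asns -0.26 to 1.31, Sesn2 -0.73 to 1.17, Phgdh -1.37 to 1.25. In dd they ran over Atf4 -0.15 to 1.26, Ddit3 -1.13 to 1.61, Ddit4 -1.34 to 0.62, Trib3 -0.45 to 0.18, Chac1 -1.37 to 0.73, Asns -0.68 to 1.27, Sesn2 -1.54 to 0.50, Phgdh -1.90 to 0.72. Depth limits Ddit3, Chac1 and Slc7a11 in the replicate 1 libraries, with as few as 2, 5 and 1 reads.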
